A study of Mus musculus with 8 samples.

Results

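Speedy A (SpdyA), the cyclin-dependent kinase CDK2, the A-type and E-type cyclins and a pair of CDK inhibitors were examined in RNA from synchronized mouse testes. The 8 genes, Spdya, Cdk2, Ccna1, Ccna2, Ccne1, Ccne2, Cdkn1b and Cdkn2d, were chosen by name as SpdyA, CDK2, its cyclins and CDK inhibitors. They were taken out of 54532 genes in the deposited table, and each was found in it once. Cyclin-dependent kinases such as CDK2 are switched on by binding a partner, usually a cyclin, and are restrained by inhibitor proteins. SpdyA has no sequence similarity to cyclins but binds and activates CDK2, and in meiotic prophase I both sit at telomeres, where they are needed to tether the telomeres to the nuclear envelope. E-type and A-type cyclins are known for driving CDK2 through the start and the progress of DNA replication, and both families also have members that male meiosis requires.

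The groups were 4 Sync-Spdya fl/fl mice, called controls here, and 4 Sync-Spdya cKO mice, and 1 whole testis library was made per mouse. Both groups carried loxP sites around exon 2 of both Spdya alleles, had their germ cells synchronized by a retinoic acid (RA) synthesis inhibitor followed by RA, and received tamoxifen on RA7.5 and RA8.5 according to the labels, whereas the methods of the study give other fractions of those days. The cKO mice also carried Ddx4-CreERT2, a tamoxifen-activated Cre expressed from the germ cell gene Ddx4 through an insertion into its exon 2, so that deletion is directed to germ cells and not to the supporting cells of the testis. Testes were collected on RA11.5, which the labels describe as mid-late pachytene, and no other age is given in the labels. The Cre was inserted into Ddx4 in the cKO mice only, so Cre, the Ddx4 allele and the loss of exon 2 cannot be told apart in this design. In whole testis RNA, a smaller number of cells of a type and less RNA in each of those cells cannot be told apart either.

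Values are FPKM, fragments per kilobase of gene scaled to the size of the library. The length used is that of all annotated exon bases of a gene, for example 6219 for Cdk2 and 2198 for Spdya. Levels of different genes are therefore set side by side per annotated exon base, and the length of the transcripts present was not measured. Each library held 13978342 to 19583091 fragments on genes. Control replicate 1 stood apart, with 0.464% of its fragments on mitochondrial genes where the other 7 libraries had 2.20% to 3.74%. The pachytene spermatocyte markers, 8 of 8 of which were above 0.1 FPKM, summed to 1073 to 1630 FPKM in controls and 847 to 1316 FPKM in cKO libraries. Of the markers of round spermatids, a later stage, 3 of 7 (Acrv1, Prm2 and Tnp1) were at a mean of 0.1 FPKM or less, and no marker in any of the 9 marker lists was at 0 in every library.

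Spdya lies at chr17:71552061-71589533 on the plus strand of GRCm38 (ENSMUSG00000052525), and exon 2, the floxed exon, spans chr17:71556240-71556489. In the annotation this exon carried the start codon of all 4 coding transcripts. It held 232 of the 927 coding bases of transcript Spdya-201, or 25.03%, and the first in-frame methionine codon after exon 2 was codon 88. The coding stretch of exon 2, a part of what Cre removes, is shown, chr17:71556258-71556489, plus strand of GRCm38, with the start codon in capitals.
Spdya exon 2, coding part: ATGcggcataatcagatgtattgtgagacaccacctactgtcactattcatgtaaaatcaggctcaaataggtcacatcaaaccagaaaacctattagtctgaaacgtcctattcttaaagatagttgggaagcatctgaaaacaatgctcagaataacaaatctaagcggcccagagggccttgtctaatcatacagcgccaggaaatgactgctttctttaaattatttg

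The level of Spdya over the whole gene did not pass the test of a difference between cKO testes and controls. Spdya had 20.8, 21.0, 23.8 and 19.7 FPKM in control replicates 1 to 4 (21.3 ± 1.76, SD, n = 4) and 30.5, 22.2, 26.1 and 17.7 FPKM in cKO replicates 1 to 4 (24.1 ± 5.45, n = 4). The groups overlapped, with 2 cKO libraries above all controls and 1 below all of them. On log2(FPKM + 0.1), with limma, a linear model fitted to each gene with information shared across 12141 protein-coding genes, the log2 fold change of Spdya, cKO minus control, was 0.15 (SE 0.16, 95% confidence interval -0.20 to 0.50, Benjamini-Hochberg adjusted p = 0.787). It was 0.0301 without cKO replicate 1 and 0.29 without cKO replicate 4.

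A whole-gene value is a poor check of the deletion. The study checked it at the protein level, by staining spermatocytes of synchronized mice collected slightly earlier. It reports that nearly all pachytene cells of the cKO mice lacked SpdyA protein. Exon 2 made up 250 of the 2198 bases over which Spdya fragments were counted, or 11.4%. If a transcript lost exon 2 and nothing else, its value would fall by 0.17 on the log2 scale, which lies inside the confidence interval of the measured change. All 250 bases of exon 2 also lie inside the last exon of the pseudogene Mettl4-ps1 on the same strand, chr17:71556240-71556543, and 402 exon bases of Spdya are shared with the antisense gene Trmt61b. The counting tool and its use of strand are not given in the sources used here, so fragments from these shared bases may have been counted for either gene or for neither.

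**Figure D1:**
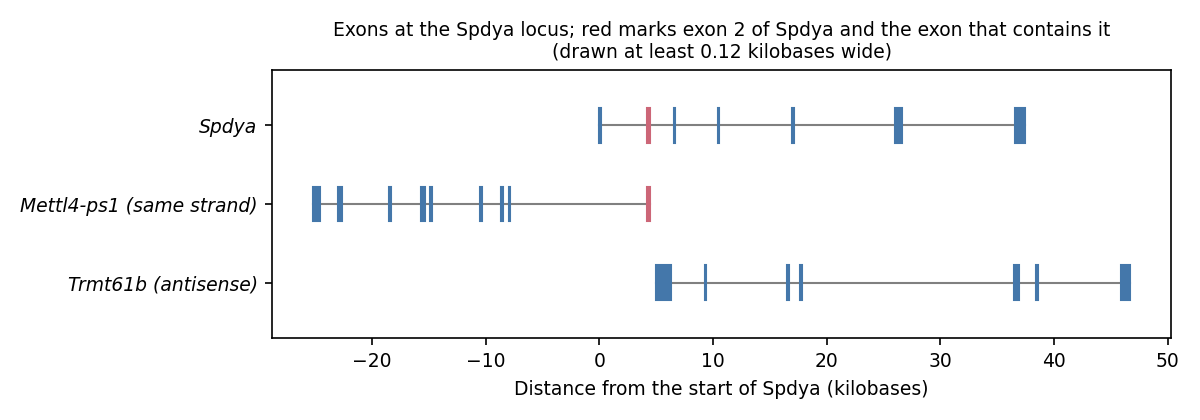
Exons of Spdya, Mettl4-ps1 and Trmt61b against distance from the start of Spdya in kilobases, as boxes drawn at least 0.12 kilobases wide on a line for each gene. The 250 bases of Spdya exon 2 (red, upper lane) lie within the last exon of Mettl4-ps1 (red, middle lane). The exons of Trmt61b all lie beyond exon 2, further from the start of Spdya.

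Both neighbours were far less abundant than Spdya. They are named for their position and outside the rule for named genes, as are the other overlapping genes described here. Mettl4-ps1 had 21 to 40 fragments per library, 0.963 ± 0.338 FPKM in controls and 0.695 ± 0.0575 in cKO libraries (SD, n = 4 each), with overlapping groups. Trmt61b had 3.87 ± 0.702 FPKM in controls and 2.88 ± 0.406 in cKO libraries, a log2 fold change of -0.40 (SE 0.17) that did not pass after adjustment in limma over all biotypes (adjusted p = 0.527).

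Ddx4, the host of the Cre insertion and an RNA helicase of germ cells, had 259, 210, 231 and 200.5 FPKM in the control replicates and 252, 186, 192 and 169 FPKM in the cKO replicates. Of the 4 cKO libraries, 3 were below all controls and replicate 1 was not. For Ddx4 the log2 fold change was -0.18 (SE 0.16, limma adjusted p = 0.740).

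Cdk2, the kinase itself (ENSMUSG00000025358, chr10:128697939-128705031, minus strand), was the steadiest of the 8 genes over all 8 libraries. Of its 6219 counted bases, 34 are shared with Pmel on the other strand. It had 28.5, 27.3, 26.2 and 23.9 FPKM in controls (26.5 ± 1.96, SD, n = 4) and 27.5, 24.9, 25.7 and 24.1 FPKM in cKO libraries (25.6 ± 1.47, n = 4). Every cKO value lay within the control range. Cdk2 had a log2 fold change of -0.05 (SE 0.09, limma adjusted p = 0.889), for which the 95% interval of -0.26 to 0.16 was the narrowest of the 8, and its sign turned when libraries were rescaled to TPM (0.0298).

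**Figure D2:**
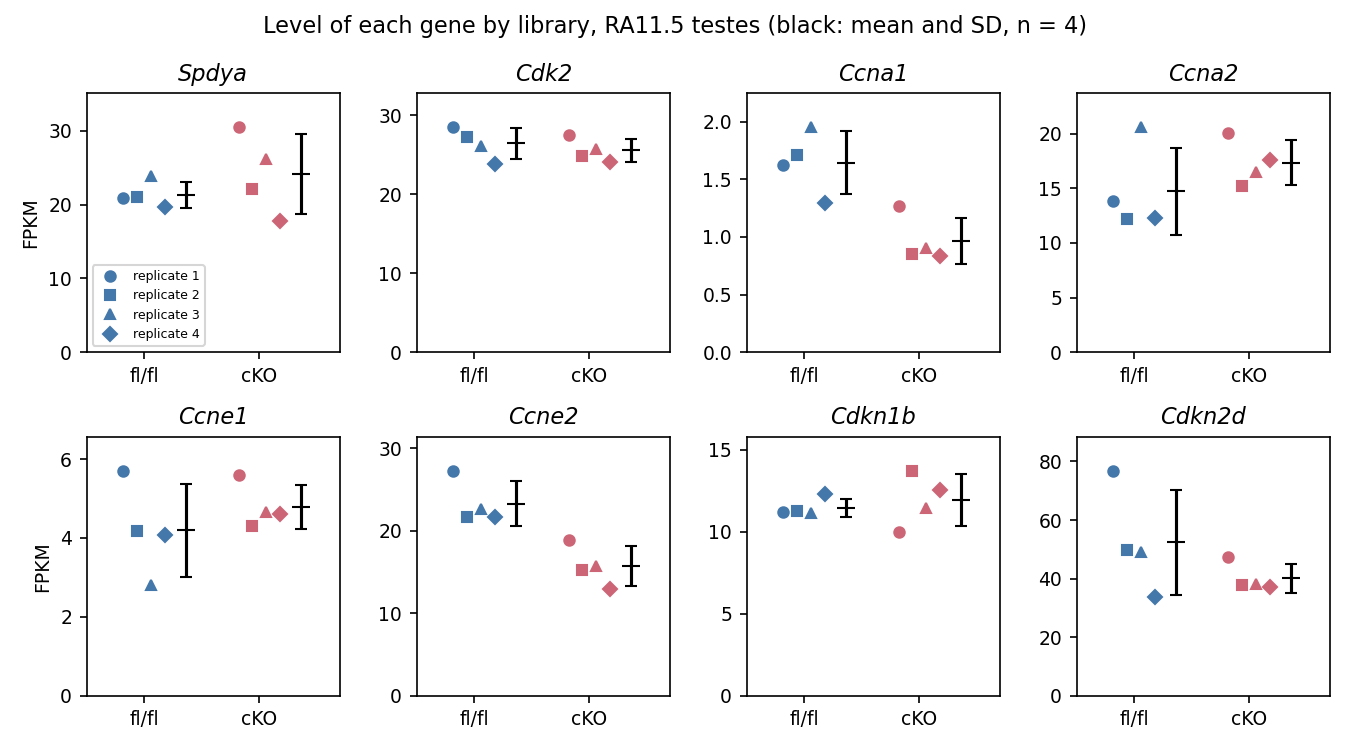
FPKM (vertical axis, from 0) of each of the 8 genes in the 4 Sync-Spdya fl/fl libraries (blue) and the 4 Sync-Spdya cKO libraries (red), with a marker shape for each replicate number and the mean and SD in black. Ccna1 and Ccne2 are the genes whose 4 cKO values all lie below the 4 control values.

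The A-type cyclins are Ccna2, which acts in dividing cells generally, and Ccna1, a form largely restricted to male germ cells and known to be needed for spermatocytes to reach the meiotic divisions. Ccna1 (ENSMUSG00000027793, chr3:55045469-55055501, minus strand) was the least abundant of the 8 genes. It had 1.62, 1.71, 1.95 and 1.30 FPKM in controls (1.65 ± 0.271, SD, n = 4) and 1.26, 0.853, 0.905 and 0.834 FPKM in cKO libraries (0.964 ± 0.203, n = 4). The highest cKO library, replicate 1, was just below the lowest control, replicate 4, so the groups did not overlap.

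These Ccna1 values rest on 25 to 57 fragments per library. The exact Poisson 95% interval, which covers counting error only, was 0.922 to 1.77 FPKM in control replicate 4 and 0.923 to 1.69 FPKM in cKO replicate 1. Of the 16 pairs of a control and a cKO library, 5 had intervals that did not touch. Because its cKO mean was under 1 FPKM, Ccna1 was outside the genes tested with the study's filter, a mean above 1 FPKM in both groups. In the wider limma fit of 15937 protein-coding genes with a mean above 0.1 FPKM, added after the values were seen, its log2 fold change was -0.72 (SE 0.19, 95% interval -1.14 to -0.30, adjusted p = 0.212), rank 248 by p. With each library left out in turn it ran from -0.84 to -0.64, with limma adjusted p from 0.118 to 0.602. The added 0.1 FPKM makes this change smaller than the ratio of the means, 0.586.

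Ccna1 shares 185 exon bases with the antisense gene 4931419H13Rik. That gene had 6 to 35 fragments per library and 1.58 ± 0.493 FPKM in controls against 1.01 ± 0.627 in cKO libraries (SD, n = 4 each), with overlapping groups and a log2 fold change of -0.72 (SE 0.43, limma adjusted p = 0.645 over all biotypes). The part of the shared bases in the Ccna1 values was not tested.

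Ccna2 (ENSMUSG00000027715, chr3:36564865-36572150, minus strand) was above Ccna1 in every library. It had 13.8, 12.2, 20.6 and 12.3 FPKM in controls (14.7 ± 3.97, SD, n = 4) and 20.02, 15.2, 16.5 and 17.6 FPKM in cKO libraries (17.3 ± 2.04, n = 4). Control replicate 3 was above all other 7 libraries, and the other 3 controls were below all cKO libraries. Its log2 fold change was 0.26 (SE 0.17, 95% interval -0.12 to 0.64, limma adjusted p = 0.635), and 0.43 once control replicate 3 was left out. Exosc9, an exosome subunit gene that shares 510 exon bases with Ccna2 on the other strand, had a log2 fold change of -0.24 (SE 0.23, limma adjusted p = 0.770).

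The E-type cyclins, Ccne1 and Ccne2, both activate CDK2 at the entry into S phase and are also expressed in spermatocytes. Ccne2 (ENSMUSG00000028212, chr4:11191351-11204779, plus strand) had 27.3, 21.6, 22.6 and 21.7 FPKM in controls (23.3 ± 2.69, SD, n = 4) and 18.8, 15.3, 15.7 and 12.96 FPKM in cKO libraries (15.7 ± 2.42, n = 4), so that the cKO mean was 0.673 times that of the controls. All 4 cKO libraries were below all 4 controls. With 769 to 1371 fragments per library, the Poisson 95% intervals were separate in 16 of 16 pairs of a control and a cKO library. These intervals leave out the spread between mice. Among the members whose groups overlapped, the count of separate pairs ran from 4 of 16 for Cdkn1b to 14 of 16 for Ccna2.

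The log2 fold change of Ccne2 was -0.57 (SE 0.13, 95% interval -0.87 to -0.28, limma adjusted p = 0.172). It ranked 95 by p among 12141 genes, and after adjustment it did not pass. When each library was left out in turn the log2 fold change ran from -0.67 to -0.49 with adjusted p from 0.0989 to 0.560. With array weights, which give noisier libraries less say, the adjusted p of Ccne2 was 0.0261 at a log2 fold change of -0.54 and that of Ccna1 in the wider fit was 0.0371 at -0.84, and neither reached an absolute log2 fold change of 1. Over the alternatives with all 8 libraries the adjusted p of Ccne2 ran from 0.0261 to 0.273 and that of Ccna1 from 0.0371 to 0.335. The weights of the array weights fit ran from 0.161 for control replicate 1 to 4.45 for cKO replicate 3. With these weights, 454 of the 12141 genes had a limma adjusted p below 0.05, against 2 without them. Ints8, an Integrator subunit gene on the other strand that shares 609 exon bases with Ccne2, had a log2 fold change of -0.05 (SE 0.12, limma adjusted p = 0.907).

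Ccne1 (ENSMUSG00000002068, chr7:38097984-38107534, minus strand) shared no exon bases with another gene. It had 5.70, 4.16, 2.81 and 4.08 FPKM in controls (4.19 ± 1.18, SD, n = 4) and 5.60, 4.31, 4.66 and 4.60 FPKM in cKO libraries (4.79 ± 0.561, n = 4). The cKO values lay inside the control range, which ran from replicate 3 to replicate 1. Ccne1 had a log2 fold change of 0.22 (SE 0.19, 95% interval -0.21 to 0.65, limma adjusted p = 0.737), with 0.05 once control replicate 3 was left out and 0.38 once control replicate 1 was.

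The inhibitors differ in what they bind. Cdkn1b encodes p27, which binds and blocks cyclin-CDK2 complexes, and Cdkn2d encodes an INK4 protein that binds the cyclin D kinases CDK4 and CDK6 rather than CDK2. Neither gene shares exon bases with another gene. Cdkn1b (ENSMUSG00000003031, chr6:134920401-134925513, plus strand) had 11.2, 11.2, 11.1 and 12.3 FPKM in controls (11.5 ± 0.552, SD, n = 4) and 10.0, 13.7, 11.5 and 12.6 FPKM in cKO libraries (11.9 ± 1.58, n = 4). The cKO libraries spread to both sides of the controls, 2 above all of them and 1 below. Cdkn1b had a log2 fold change of 0.05 (SE 0.11, 95% interval -0.20 to 0.30, limma adjusted p = 0.907), and it was -0.0190 without cKO replicate 2.

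Cdkn2d (ENSMUSG00000096472, chr9:21288410-21291407, minus strand) was the most abundant of the 8 genes. It had 76.8, 49.7, 49.2 and 33.7 FPKM in controls (52.3 ± 17.9, SD, n = 4) and 47.5, 37.9, 38.1 and 37.1 FPKM in cKO libraries (40.1 ± 4.91, n = 4). The controls held both the highest and the lowest library, replicates 1 and 4, with all cKO values between them. Cdkn2d had a log2 fold change of -0.33 (SE 0.22, 95% interval -0.81 to 0.15, limma adjusted p = 0.637), with -0.12 once control replicate 1 was left out and -0.52 once control replicate 4 was.

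Over the 8 genes, 0 passed in limma the cutoffs that the study applied in a count-based test of differential expression (DE), an adjusted p below 0.05 with an absolute log2 fold change above 1, against 0.0165% of the 12141 genes tested with the study's filter and 0.0125% of the 15937 in the wider fit. Of the 7 members tested there, 1 (Ccne2) had an unadjusted p below 0.05, where 10.9% of all genes tested did, and 5% did with the cKO lower. In the fit of 15937 genes it was 2 of 8, Ccna1 and Ccne2, against 11.1% of all genes and 4.86% with the cKO lower. The controls and the cKO libraries did not overlap in 1 of the 7, with 6.24% of all genes tested not overlapping and 2.59% lower in cKO. In the wider set 2 of 8 did not overlap, against 6.32% of all genes and 2.55% lower in cKO. The median log2 fold change of the 7 was 0.05, beside 0.01 over all genes tested. At the same cutoffs, the study's own count-based test called more genes in these libraries than limma did. Its calls for the members were not compared here.

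**Figure D3:**
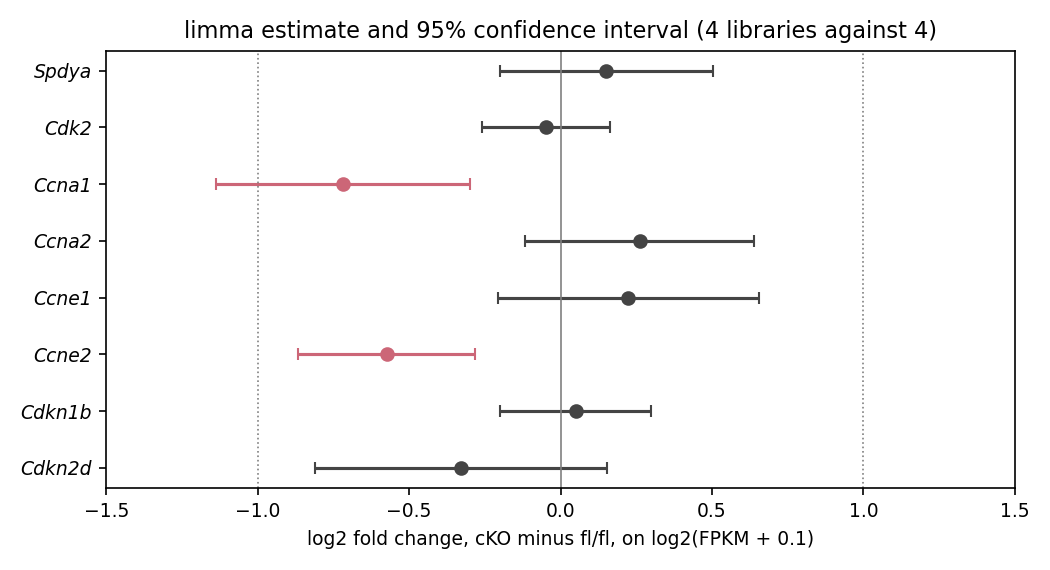
limma log2 fold change of each gene, cKO minus Sync-Spdya fl/fl, on log2(FPKM + 0.1), with its 95% confidence interval and dotted lines at the fold threshold of the study, an absolute value of 1. The intervals of Ccna1 and Ccne2 (red) lie below 0, those of the other 6 genes include 0, and Ccna1 comes from the fit of 15937 genes.

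The order of the levels was the same at both ends in every library. Over all 8 libraries the means ran from Cdkn2d (46.2 FPKM) through Cdk2 (26.0), Spdya (22.7), Ccne2 (19.5), Ccna2 (16.02), Cdkn1b (11.7) and Ccne1 (4.49) to Ccna1 (1.31). Cdkn2d was above Cdk2, Ccna2 above Cdkn1b, Cdkn1b above Ccne1 and Ccne1 above Ccna1 in 8 of 8 libraries. The ranges over libraries were separate for Cdkn2d and Cdk2, for Cdkn1b and Ccne1, and for Ccne1 and Ccna1, while those of the other neighbours in the order overlapped.

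The middle of the order changed between libraries. Cdk2 was above Spdya in 4 of 4 controls and 2 of 4 cKO libraries. Spdya was above Ccne2 in 1 of 4 controls and in 4 of 4 cKO libraries, and Ccne2 was above Ccna2 in 4 of 4 controls but in 1 of 4 cKO libraries. These counts describe the libraries and were not tested.

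Ratios between the genes within a library do not depend on how libraries are scaled, and 6 were compared. The log2 ratio of Ccna1 to Ccna2 was -3.09, -2.83, -3.40 and -3.25 in controls (-3.14 ± 0.24, SD, n = 4) and -3.98, -4.16, -4.19 and -4.39 in cKO libraries (-4.18 ± 0.17, n = 4). The groups were separate, and the difference was -1.04, a ratio 0.486 times that of the controls (exact permutation test, two-sided, p = 0.0286). This is the smallest p that 4 libraries against 4 allow, and adjusted over the 6 ratios it was 0.0857, which does not pass. The log2 ratio of Ccne2 to Ccne1 was 2.26, 2.38, 3.01 and 2.41 in controls (2.51 ± 0.34) and 1.75, 1.83, 1.75 and 1.49 in cKO libraries (1.71 ± 0.15). These groups were also separate, with a difference of -0.81 (exact permutation p = 0.0286, adjusted p = 0.0857). The numerators of both ratios, Ccna1 and Ccne2, are the members whose own levels were separate, so the ratios are not independent of those results. The ratios were also chosen with earlier results of these data known, which the adjustment does not cover.

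The other 4 ratios overlapped between the groups. Spdya to Cdk2 differed by 0.20 on the log2 scale (exact permutation p = 0.257, adjusted p = 0.309). This ratio was above 0, with a higher FPKM for Spdya than for Cdk2, in cKO replicates 1 and 3 only. Its difference was 0.12 without cKO replicate 1 and 0.31 without cKO replicate 4. Cdkn2d to Cdkn1b differed by -0.38 (exact permutation p = 0.371, adjusted p = 0.371), with -0.16 and -0.61 once control replicates 1 and 4, respectively, were left out. The summed cyclins relative to Cdk2 differed by -0.13 (exact permutation p = 0.229), and the summed inhibitors relative to Cdk2 by -0.21 (exact permutation p = 0.2), both at an adjusted p of 0.309. Most of the inhibitor sum was Cdkn2d, whose protein binds CDK4 and CDK6 rather than CDK2. With control replicate 3 left out the cyclin difference was -0.0806, and with control replicate 1 left out that of the inhibitors was -0.0763.

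**Figure D4:**
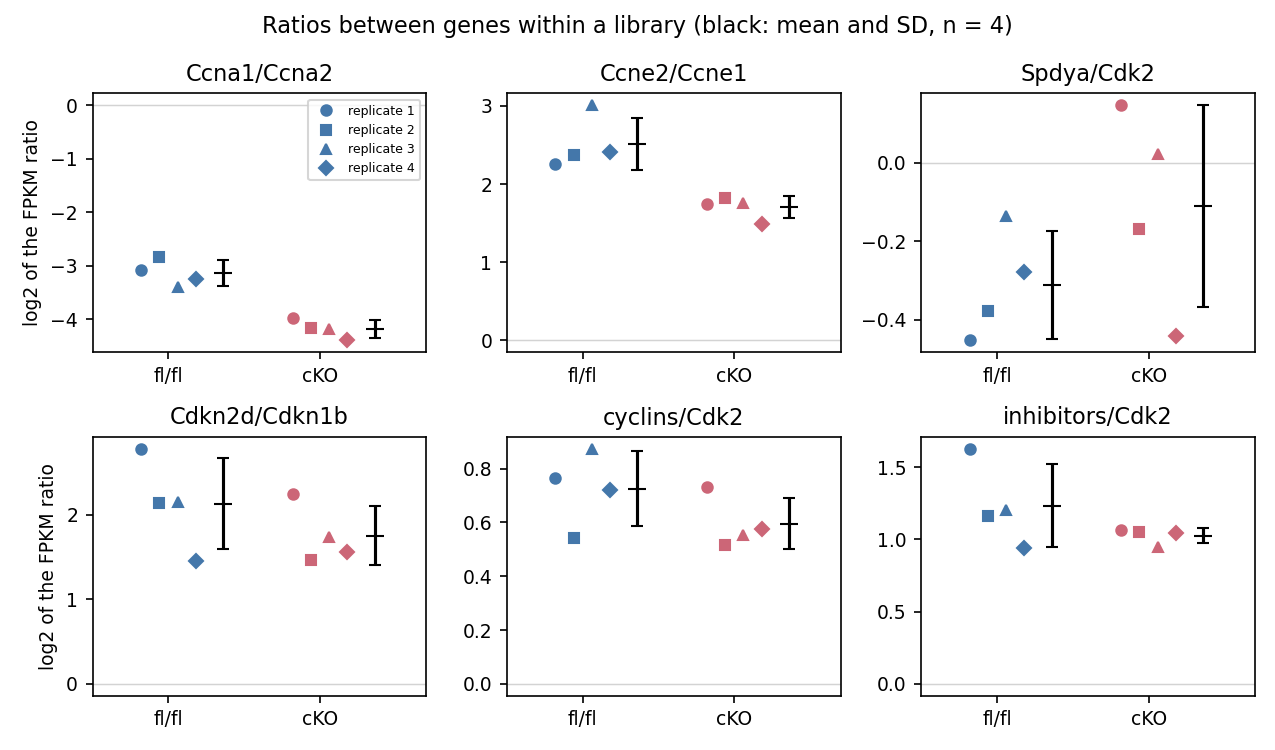
The log2 ratio of FPKM between genes within each library for the 6 ratios, with fl/fl libraries in blue, cKO libraries in red, a marker shape for each replicate number, and the mean and SD in black. Ccna1/Ccna2 and Ccne2/Ccne1 are lower in all 4 cKO libraries than in all 4 controls, and the other 4 ratios overlap.

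The make-up of the cyclin RNA shows the same values as shares. The 4 cyclins together came to 43.9 ± 4.99 FPKM in controls and 38.8 ± 4.73 FPKM in cKO libraries (SD, n = 4 each). Ccne2 was 56.4%, 54.5%, 47.2% and 55.1% of this sum in controls and 41.2%, 42.8%, 41.5% and 36.05% in cKO libraries. Ccna2 was 28.5%, 30.7%, 42.9% and 31.3% in controls and 43.8%, 42.7%, 43.7% and 48.8% in cKO libraries. Ccne2 was thus the largest cyclin share in 4 of 4 controls, and Ccna2 was the largest in cKO replicates 1, 3 and 4, with 42.8% for Ccne2 and 42.7% for Ccna2 in cKO replicate 2. Control replicate 3 was the control nearest to the cKO libraries in its Ccna2 and Ccne2 shares. Ccne1 was 9.62% ± 2.59 in controls and 12.4% ± 0.309 in cKO libraries, and Ccna1 3.76% ± 0.513 and 2.47% ± 0.201. These shares were added after the values were seen and were not tested.

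The spread between libraries of a group differed between genes, and some libraries also stood apart as a whole. The squared difference between a pair of libraries, relative to counting error, was averaged over all genes tested. It was 87.1 to 117 for control replicate 1 against the other controls, and 16.9 to 27.9 among those. For cKO replicate 1 against the other cKO libraries it was 22.4 to 30.8, and 4.81 to 9.91 among those. The SD of log2(FPKM + 0.1) of Spdya was 0.12 in controls and 0.33 in cKO libraries, whereas the median over all genes tested was 0.25 in controls and 0.13 in cKO libraries. Cdkn1b also had the larger SD in cKO libraries, 0.19 against 0.07. Cdkn2d went the other way, with 0.49 in controls and 0.17 in cKO libraries. Control replicate 1, the library with few mitochondrial fragments, had the highest Cdkn2d, Ccne2, Ccne1 and Cdk2 values of all libraries, and control replicate 3 had the highest Ccna1 and Ccna2 and the lowest Ccne1.

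Cell type markers were compared between the groups in 9 lists, none of which passed after adjustment. All 7 pachytene markers tested had a negative log2 fold change, 2 of them at an unadjusted limma p below 0.05. Over all genes tested, 10.9% had such a p, and 5% did with the cKO lower. The eighth pachytene marker, Hist1h1t, was under the filter and had the higher mean in cKO libraries, 0.667 ± 0.242 FPKM against 0.279 ± 0.0531 in controls (SD, n = 4 each). The mean log2 level of the 8 markers differed by -0.13 (exact permutation p = 0.514, adjusted over 9 lists p = 0.579). All 4 macrophage markers had a positive log2 fold change, and their summed level was 5.20 to 7.71 FPKM in controls and 7.84 to 9.67 FPKM in cKO libraries (difference of mean log2 level 0.47, exact permutation p = 0.0286, adjusted p = 0.193). Leydig markers differed by 0.54, peritubular markers by 0.32 and endothelial markers by 0.42, with summed levels of 15.6 to 33.2, 44.3 to 74.1 and 4.95 to 11.4 FPKM in controls against 25.2 to 41.0, 73.2 to 103 and 10.7 to 13.6 FPKM in cKO libraries. Sertoli markers differed by 0.09, spermatogonia markers by -0.11, round spermatid markers by -0.19 and proliferating cell markers by 0.11. Of the 8 spermatogonia markers tested in limma, 5 had a positive and 3 a negative log2 fold change, with a median of 0.06. The largest of these changes was that of Stra8 (-1.46, SE 0.44, limma adjusted p = 0.280), the only 1 at an unadjusted p below 0.05. Such a p with the cKO higher was found for 2 of 3 endothelial and 1 of 4 macrophage markers tested. The same held for 1 of 3 peritubular and 1 of 2 Leydig markers tested. Only 1 round spermatid marker was above the filter, and its log2 fold change was positive. The adjusted p of these 7 lists was between 0.193 and 0.743, and the part of cell type composition in the lower Ccna1 and Ccne2 values was not tested.

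Other genes of CDK control showed few differences at this level of replication. Of 85 genes in 7 lists, 79 were tested, 0 passed the DE threshold, and 5 (6.33%) had an unadjusted limma p below 0.05, 2 with a higher and 3 with a lower cKO level, where 10.9% of all genes tested did, 5.89% with a higher and 5% with a lower cKO level. This count was 9 without control replicate 1, where 15.6% of all genes tested had such a p. It was 3 without control replicate 2, cKO replicate 2 or cKO replicate 4, with 11.1%, 7.58% and 5.66% of all genes, and 2 without cKO replicate 3, with 6.61%. The median log2 fold change over the 79 genes was -0.08.

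**Figure D5:**
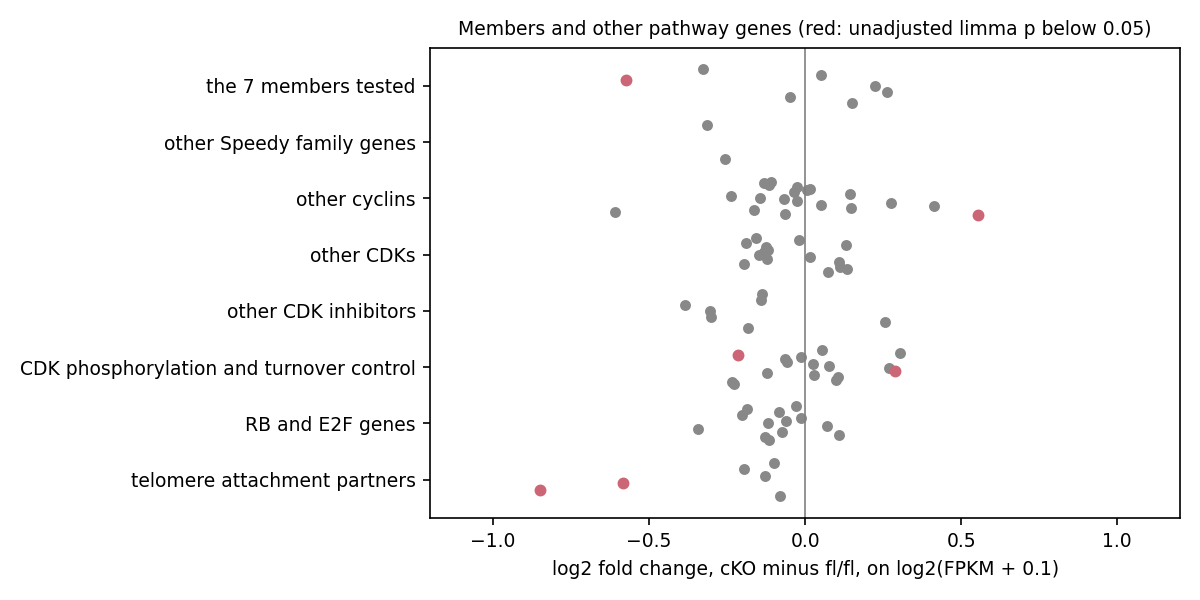
limma log2 fold change, cKO minus Sync-Spdya fl/fl, on log2(FPKM + 0.1), of the 7 members tested and of the genes tested in each of 7 other lists, with 1 point per gene and red for an unadjusted p below 0.05. Of the 79 listed genes other than members 5 are red, and none lies beyond an absolute value of 1.

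Among the other cyclins, 20 of 21 were tested and 1 (5%) had an unadjusted p below 0.05, where 10.9% of all genes tested did. Ccnb1, the B-type cyclin that activates CDK1 for division, had 9.26, 10.97, 22.4 and 12.3 FPKM in controls and 21.6, 17.6, 17.6 and 19.7 FPKM in cKO libraries (log2 fold change 0.55, SE 0.23, limma adjusted p = 0.444). As with Ccna2, control replicate 3 was the highest library and the other 3 controls were below all cKO libraries. Ccnb3, a meiotic B-type cyclin, had 1.39, 1.58, 4.16 and 1.80 FPKM in controls and 1.29, 1.07, 1.34 and 1.51 FPKM in cKO libraries (log2 fold change -0.61, SE 0.30, limma adjusted p = 0.523).

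None of the 15 other CDK genes tested had an unadjusted p below 0.05, and their log2 fold changes ran from -0.20 to 0.13. The smallest p were those of Cdk17 (log2 fold change -0.19, SE 0.10, limma adjusted p = 0.553) and Cdk11b (-0.13, SE 0.10, limma adjusted p = 0.700). The Speedy family genes Spdye4b and Spdye4a, relatives of Spdya, had 20.8 ± 2.99 and 2.48 ± 0.702 FPKM in controls and 17.1 ± 4.996 and 2.03 ± 0.393 in cKO libraries (SD, n = 4 each). Their log2 fold changes were -0.32 (SE 0.19, limma adjusted p = 0.608) and -0.26 (SE 0.21, limma adjusted p = 0.719). Spdye4c was under the filter at 0.281 FPKM in controls and 0.239 in cKO libraries.

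All 7 other CDK inhibitors were tested and 0 had an unadjusted p below 0.05. Cdkn2b and Cdkn2c, INK4 genes like Cdkn2d, had log2 fold changes of -0.30 (SE 0.17, limma adjusted p = 0.565) and -0.38 (SE 0.26, limma adjusted p = 0.653). Cdkn2c had 64.6, 37.7, 44.4 and 25.1 FPKM in controls and 42.1, 28.3, 31.3 and 25.04 FPKM in cKO libraries. As for Cdkn2d, control replicate 1 was the highest control and control replicate 4 the lowest, and cKO replicate 1 was the highest of the cKO libraries.

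Of 16 genes tested for CDK phosphorylation and turnover, 2 (12.5%) had an unadjusted p below 0.05, close to the 10.9% of all genes tested. Cks1b, a small CDK-binding subunit that helps to mark p27 for degradation, had 20.8 ± 2.02 FPKM in controls and 25.4 ± 2.595 in cKO libraries (SD, n = 4 each, log2 fold change 0.29, SE 0.11, limma adjusted p = 0.396). Fbxw7, the F-box receptor through which cyclin E protein is degraded, had 9.70 ± 0.413 FPKM in controls and 8.36 ± 0.732 in cKO libraries (log2 fold change -0.22, SE 0.10, limma adjusted p = 0.456). The groups overlapped for each gene. None of the 13 RB and E2F genes had an unadjusted p below 0.05, the smallest being those of Tfdp1 (log2 fold change -0.19, limma adjusted p = 0.589) and E2f7 (-0.20, limma adjusted p = 0.659).

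The telomere attachment partners of SpdyA and CDK2 held the smallest p of these lists. All 6 had a negative log2 fold change, from -0.85 to -0.08 with a median of -0.16. Terb1 and Terb2, which join telomeres to the inner nuclear membrane in meiosis, had an unadjusted limma p below 0.05. Over all genes tested, 10.9% had such a p, and 5% did with the cKO lower. The groups did not overlap for 6.24% of all genes tested, with 2.59% lower in cKO. Terb1 had 17.8, 8.19, 8.67 and 7.60 FPKM in controls and 6.67, 5.58, 5.22 and 4.54 FPKM in cKO libraries, with separate groups (log2 fold change -0.85, SE 0.25, limma adjusted p = 0.276). Its highest value was that of control replicate 1, the library with few mitochondrial fragments. Terb2 had 12.2, 11.3, 11.4 and 9.61 FPKM in controls and 10.5, 6.54, 6.98 and 6.15 FPKM in cKO libraries, and its groups overlapped through cKO replicate 1 (log2 fold change -0.58, SE 0.17, limma adjusted p = 0.260).

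The genes most like Spdya in their pattern over the 8 libraries were found by the mean absolute difference between log2(FPKM + 0.1) profiles, each centred on its own mean. This difference was 0.0787 to 0.0904 for 4833427G06Rik, Oxsm, Hormad1, Hdgfl1 and Kbtbd3, where the median over the genes compared was 0.250. Hormad1, a meiotic chromosome axis protein gene, had 124 FPKM in controls and 128 in cKO libraries. The genes most like Cdk2 were Eif1a, Pop4 and Rnf34 (0.0176 to 0.0269, median over genes 0.170). Those most like Ccna1 were 1700018B08Rik, Ttc16 and Drc7 (0.0675 to 0.0783, median over genes 0.406). The log2 fold changes of the last 3 genes ran from -0.79 to -0.64, beside -0.72 for Ccna1, since likeness over the 8 libraries includes the difference between the groups. Drc7 encodes a part of the dynein regulatory complex of flagella, with a mean of 7.65 FPKM in controls and 4.44 FPKM in cKO libraries.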

How the data were processed

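RNA of 8 whole testes, 4 per group by the genotype in the labels, was sequenced as paired ends. The authors deposited FPKM values made with the software of a sequencing company, and the submitters' processing notes name GRCm38 and mm10. Coordinates in the table matched GENCODE vM21 for 98.3% of genes. FPKM times gene length gave whole fragments for 100% of values above 0 (tolerance 0.02). limma 3.58.1 in R 4.3.3 (lmFit, eBayes with a mean trend) was run on log2(FPKM + 0.1) for 12141 genes, those that code for protein and whose group means both exceeded 1 FPKM, with Benjamini-Hochberg adjustment. Filter and thresholds are those of the study, whose own test was count-based. Within-library ratios and marker levels were compared by exact permutation tests over 70 assignments, two-sided. The members, lists and tests were chosen with earlier results of these data known. The text names the 8 members, Ddx4, the 2 genes with the smallest p in each pathway list (no pathway gene passed the DE threshold), the 5 genes most like Spdya in pattern and the 3 most like Cdk2 and Ccna1. Other genes are marked as chosen outside this rule. p-values measure the spread between mice, 1 library each. The alternatives were other pseudocounts, FPKM filters, biotypes, centring, TPM, a replicate block, eBayes without trend, array weights, voom on recovered fragments and leaving out each library.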

Additional observations from a re-analysis of the deposited data

Results flagged for a closer look

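Of 44 groups of 4 libraries examined for a single library far from the other 3, 6 had one, where chance gives about 2.2. Ccna1 was 1.26 FPKM in cKO replicate 1, with the other cKO libraries at 0.834 to 0.905 FPKM. Cdkn2d was 47.5 FPKM in the same library, with the others at 37.1 to 38.1 FPKM. Exosc9, which overlaps Ccna2, was 10.8 FPKM there, with the others at 7.72 to 8.02 FPKM, and 17.05 FPKM in control replicate 1, with the other controls at 7.97 to 8.95 FPKM. Cdkn1b was 12.3 FPKM in control replicate 4, with the other controls at 11.1 to 11.2 FPKM. Fragments on mitochondrial genes made up 0.464% of control replicate 1, with the other controls at 2.97% to 3.39%.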

How the results depend on the processing

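The count of members past the DE threshold was 0 under all 20 alternatives. The count of members at an unadjusted p below 0.05 was 1 and was 2 without an FPKM filter and with a mean above 0.1 FPKM (Ccna1 and Ccne2) and with array weights (Ccne2 and Cdkn2d), and ran from 1 to 2 when a library was left out, with Ccne1, Ccna2 or Cdkn2d as the other gene without control replicate 1, 3 or 4, where 15.6%, 7.17% and 15.3% of all genes had such a p. The count of 5 pathway genes was 14 with array weights, where 20.9% of all genes were at an unadjusted p below 0.05, and ran from 2 to 9 with a library left out. The cause of these differences was not tested. The log2 fold change of Cdk2 turned to 0.0298 after rescaling to TPM, and that of Cdkn1b to -0.0190 without cKO replicate 2. The adjusted p of Ccne2 and Ccna1 passed 0.05 with array weights only (0.0261 and 0.0371), and ran up to 0.273 and 0.335 over the other alternatives with all libraries. Of the 12141 genes tested with the study's filter, 454 had a limma adjusted p below 0.05 with array weights, against 2 as reported.

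The difference in the Ccna1/Ccna2 ratio was -1.01 with medians (exact permutation p = 0.0571) and -1.13 to -0.94 with a library left out, and that in Ccne2/Ccne1 -0.64 with medians (p = 0.0571, exact) and -0.89 to -0.64. With 3 libraries against 4, 0.0571 is the smallest p possible, so these cannot pass. Same-numbered libraries deviated together by a correlation of 0.288, 0.131, 0.0757 and 0.406, all positive and below 0.1 in 1 of the 4. Differently numbered libraries were not compared in this way, so these values cannot show whether mice were paired. Mice were not treated as paired by number. With a replicate block the ratios differed by -1.04 and -0.81 at the smallest p that 4 pairs allow (0.125, exact), the count of pathway genes was 7 of 79, with 14.6% of all genes, and no member's call changed.

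Depth limits Ccna1 most, with 25 to 57 fragments per library.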
